A study of Mus musculus with 4 samples.

Results

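The Arp2/3 complex is the actin nucleator that starts a new filament as a branch on the side of an existing one. The genes described are its subunits Actr2, Actr3, Arpc2, Arpc3, Arpc4, Arpc1a, Arpc1b, Arpc5 and Arpc5l, taken by gene ID from the list of mouse symbols. All 9 were found among the 52636 gene IDs of the count tables. They were measured by RNA sequencing of regulatory T cells, sorted from mice as CD4+CD62L+CD25bright cells, in 4 libraries, 2 from Vav1R63WThemis1-T-/- mice and 2 from Vav1R63W mice, numbered replicates 2 and 3 in each group. The mice were C57BL/6 and 7 weeks old in both groups, and both groups carry the Vav1R63W allele, so no library with unaltered Vav1 enters. The first group, called the deleted group by its label, also lacks Themis1 in T cells, per the labels; what drives that deletion is not given in the sources used here. The members were chosen by name with the counts and group differences of these 4 libraries already known, so their differences between the groups are given as a description and not as a test.

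In the complex, the actin-related proteins Arp2 (gene Actr2) and Arp3 (Actr3) take the place of the first actin units of the new filament. ARPC2 and ARPC4 form the central scaffold that contacts the mother filament, ARPC3 sits beside Arp3, the propeller-shaped ARPC1 faces the activators, and ARPC5 tethers Arp2. ARPC1 and ARPC5 each come in alternative forms made from separate genes, Arpc1a or Arpc1b and Arpc5 or Arpc5l, of which a complex holds one. The complex is switched on by WASP and WAVE proteins, which act downstream of Cdc42 and Rac, and Vav1 is an exchange factor for Rac in T cells. In humans, loss of ARPC1B causes an inherited immune deficiency that affects T cells.

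Alternative subunits can be compared only if their reads can be told apart, so the stretches with the longest identical run in the coding sequences of each pair are shown here, from the GENCODE M21 transcripts. Capitals mark the identical run, which was 21 bases in the Arpc1 pair, 21 bases in the Arpc5 pair and 20 bases between Actr3 and its paralog Actr3b, which is not among the members.
Arpc1a: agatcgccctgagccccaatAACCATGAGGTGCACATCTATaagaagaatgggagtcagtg
Arpc1b: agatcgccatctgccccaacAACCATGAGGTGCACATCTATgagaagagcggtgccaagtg
Arpc5: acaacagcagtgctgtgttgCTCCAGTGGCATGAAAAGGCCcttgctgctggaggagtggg
Arpc5l: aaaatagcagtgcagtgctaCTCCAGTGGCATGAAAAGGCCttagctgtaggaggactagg
Actr3: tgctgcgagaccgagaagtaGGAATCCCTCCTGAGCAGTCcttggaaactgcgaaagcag
Actr3b: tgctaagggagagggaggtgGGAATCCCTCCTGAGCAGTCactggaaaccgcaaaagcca
The coding sequences were 71.8% identical in the Arpc1 pair, 69.5% in the Arpc5 pair and 76.3% between Actr3 and Actr3b. Processed pseudogenes were closer. Of the windows of 50 bases in the Actr3 transcript, 50.02% also occurred in transcripts of other annotated genes, nearly all in the pseudogene Gm8822, which held 48.5% of the windows. For Arpc1b the share was 23.9%, with the pseudogene Gm5637 as the main match, for Arpc4 it was 10.5%, all of it in the overlapping gene Ttll3, and for the other members it was between 0 and 2.04%. Gm8822 itself had 65 and 35 reads in replicates 2 and 3 labelled Themis1-deleted, and 42 and 32 reads in Vav1R63W replicates 2 and 3. STAR counts reads that map to several places in a line of their own and not under a gene, so the levels of Actr3 and Arpc1b are uncertain in all libraries.

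Reads assigned to genes numbered between 13963670 and 15953194 per library, fewest in replicate 3 labelled Themis1-deleted. That library also had reads in the fewest genes, 10809, against 12049 in replicate 2 of its group and 12011 and 11722 in Vav1R63W replicates 2 and 3. The targeted gene, Themis, had 685 and 0 reads in replicates 2 and 3 labelled Themis1-deleted, against 283 and 97 in Vav1R63W replicates 2 and 3. By this gene alone, replicate 2 of the deleted group goes against its label, and the cause was not tested. Other genes also differed widely between these libraries, as Prf1 had 581 and 1 reads and Fmnl3 3 and 1390 in replicates 2 and 3 of the deleted group. Reads counted per gene do not show which exons they cover. Differences below are therefore between labels, with those of the members also given without that library. All 8 regulatory T cell markers had reads. edgeR called 0 of them, but it called 0% of the 10216 genes tested, so this count does not show that they were alike. Foxp3, the lineage factor, was at 1014 and 737 CPM (reads per 1000000 reads in genes) in libraries labelled Themis1-deleted and at 904 and 636 CPM in Vav1R63W libraries, and Il2ra, which encodes CD25, at 223 and 325 against 310.0 and 274 CPM. A further pair, named after their values were seen, did not overlap between the groups: Ctla4 was lower in the deleted group, at 112 and 93.0 against 173 and 159.6 CPM, and Ikzf2 higher, at 183 and 162 against 150.5 and 117 CPM. The summed level of 8 monocyte and macrophage markers was 840.0 and 1018 CPM against 753 and 822 CPM, nearly all of it Ctss, while Cybb was at 0 and 15.8 against 18.6 and 16.9 CPM and the other 6, Csf1r among them, had no read. The 8 B cell markers summed to 1312 and 1370 CPM against 1179 and 1305 CPM, nearly all of it Ighm. Cd79b was at 35.5 and 62.7 against 58.3 and 63.6 CPM and Cd79a at 2.38 and 0 against 9.64 and 5.35 CPM. Of the 8, 4 had no read, among them Pax5. Both sums were higher in both libraries labelled Themis1-deleted, through Ctss and Ighm, whereas Cybb and Cd79a were lower there. The 7 dendritic cell markers summed to 238 and 275.9 CPM against 306 and 276.4 CPM, lower in both libraries of the deleted group though by under 1 CPM between the nearest, nearly all of it Cst3, and 5 of the 7, Itgax among them, had no read. The sums of CD8 T and NK cell markers, led by Nkg7, and of erythroid and platelet markers, led by Itga2b, overlapped between the groups. In these lists 4 of 8 and 5 of 8 genes had no read, among them Cd8a and Alas2. Cd8b1, of the same list as Cd8a, had reads in every library, at 30.3 and 19.3 against 26.1 and 38.5 CPM. Hbb-bs, an erythroid marker, was at 4.51 and 1.86 CPM in the deleted group and had no read in Vav1R63W libraries. The part of these markers in the results below was not tested. Neutrophil markers had no read in any library. In bulk samples, fewer cells of a type and less RNA per cell cannot be told apart.

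Set against exon length, Arpc5 had the highest level and Actr2 and Arpc1a the lowest in both groups. In reads per kilobase of the union of annotated exons per 1000000 reads in genes (RPKM), Arpc5 was at 329 ± 65.3 in libraries labelled Themis1-deleted and 519 ± 13.5 in Vav1R63W libraries (SD, n = 2 each, as for the values that follow). Actr3 was at 229 ± 2.90 and 230 ± 42.6 RPKM, Arpc2 at 220 ± 68.9 and 314 ± 18.4 RPKM, and Arpc4 at 153 ± 7.03 and 199 ± 8.60 RPKM. Arpc3, at 92.7 ± 10.8 and 64.4 ± 3.91 RPKM, stood in the middle of the order. Arpc5l and Arpc1b followed, at 47.2 ± 4.49 and 43.3 ± 3.15 RPKM for Arpc5l and 43.7 ± 5.69 and 47.9 ± 13.2 RPKM for Arpc1b. Actr2 was at 16.5 ± 1.42 and 11.8 ± 1.31 RPKM, and Arpc1a at 5.96 ± 4.84 and 13.9 ± 1.05 RPKM. Among neighbours in this order, the libraries overlapped for Actr3 and Arpc2 in the deleted group, for Actr3 and Arpc4 in the Vav1R63W group, and for Arpc5l and Arpc1b in both. Per kilobase of coding sequence, Arpc5 was still the highest, at 1654 RPKM in the deleted group and 2609 RPKM in the Vav1R63W group. Arpc1a was the lowest in both, at 13.8 and 32.1 RPKM. The order between them depended on the length used. Arpc4 now lay above Arpc2, at 704 against 497 RPKM in the deleted group and 915 against 708 RPKM in the Vav1R63W group. In the Vav1R63W group, Arpc5l lay above Arpc3, at 425 against 333 RPKM, and Actr2 above Arpc1a, at 52.0 RPKM.

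**Figure D1:**
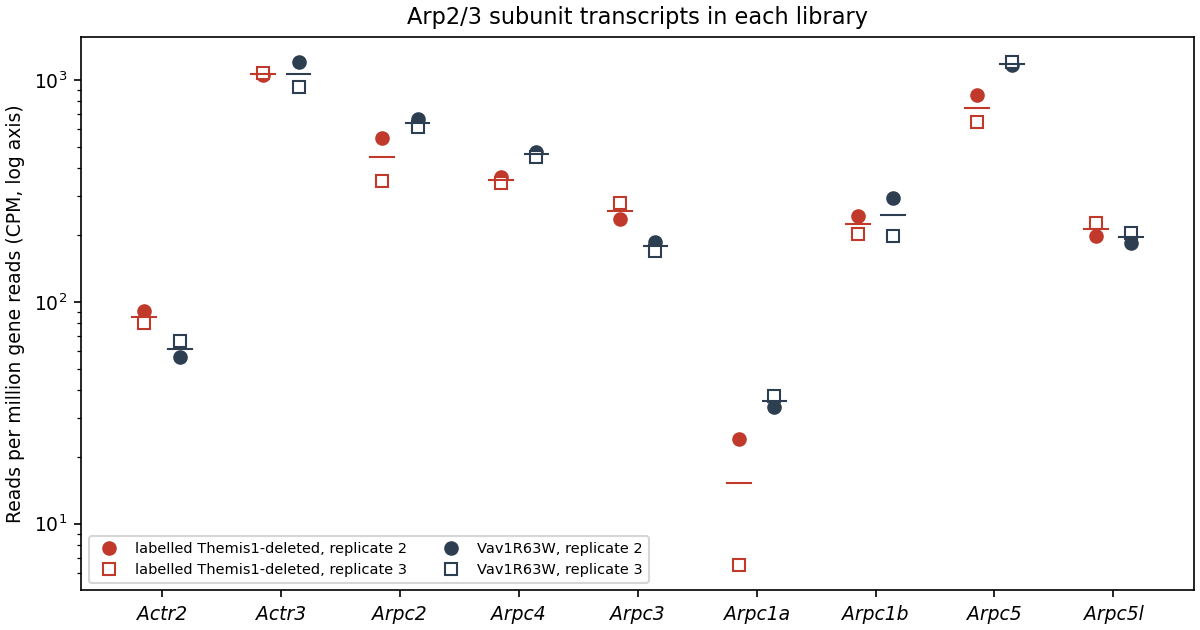
CPM of each Arp2/3 subunit gene in each library, on a log axis; red marks are the libraries labelled Themis1-deleted and dark marks Vav1R63W libraries, circles replicate 2 and squares replicate 3, with short lines at the group means. Arpc5, Arpc2, Arpc4 and Arpc1a lie lower in both red libraries than in either dark one, Arpc3 and Actr2 lie higher, and the red and dark marks of Actr3, Arpc1b and Arpc5l overlap.

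The actin-related subunits differed from each other in how the groups compared. Actr2 (ENSMUSG00000020152, GRCm38 chromosome 11, 20062304 to 20112913, minus strand) was at 91.0 and 80.6 CPM in replicates 2 and 3 labelled Themis1-deleted, against 56.6 and 66.3 CPM in Vav1R63W replicates 2 and 3. Both deleted-group libraries lay above both Vav1R63W libraries, with a log2 fold change of 0.50 ± 0.34 (SE, edgeR). Without replicate 2 of the deleted group, it was 0.43. Actr3 (ENSMUSG00000026341, chromosome 1, 125392905 to 125435727, minus strand) was at 1053 and 1072 CPM against 1204 and 925 CPM. Its groups overlapped, the Vav1R63W libraries lying on either side of the others, and the log2 fold change was 0.03 ± 0.15 (SE), or 0.06 without replicate 2 of the deleted group. Its sign turned when library totals were used without TMM scaling.

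Both scaffold genes were lower in libraries labelled Themis1-deleted than in either Vav1R63W library. Arpc2 (ENSMUSG00000006304, chromosome 1, 74236084 to 74268209, plus strand) was at 547 and 349 CPM against 664 and 611 CPM, a log2 fold change of -0.49 ± 0.24 (SE, edgeR). The low value of the deleted-group replicate 3 carried much of it: without that library the log2 fold change was -0.22, and without replicate 2 of the same group it was -0.83. Arpc4 (ENSMUSG00000079426, chromosome 6, 113378115 to 113390448, plus strand) was at 366 and 343 CPM against 475 and 447 CPM. Its replicates lay close together in both groups, and the log2 fold change of -0.35 ± 0.13 (SE) stayed between -0.38 and -0.33 with each library left out in turn. The exons of Arpc4 share 283 bases with Ttll3, a gene on the same strand that had 0 and 59 reads in the deleted group and 43 and 22 in the Vav1R63W group.

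Arpc3 (ENSMUSG00000029465, chromosome 5, 122391878 to 122414184, plus strand) differed in the opposite direction from the scaffold genes. It was at 235 and 277 CPM in replicates 2 and 3 labelled Themis1-deleted, and at 185 and 170.1 CPM in Vav1R63W replicates 2 and 3. All deleted-group values were above all Vav1R63W values, with a log2 fold change of 0.56 ± 0.20 (SE), or 0.69 without replicate 2 of the deleted group. None of its 50-base windows occurred in another gene and its exons overlap no other annotated gene.

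Arpc1a and Arpc1b are neighbours on chromosome 5, 5453 bases apart and on the plus strand. Arpc1a (ENSMUSG00000029621, 145083830 to 145108761) had 384 and 91 reads, or 24.1 and 6.52 CPM, in libraries labelled Themis1-deleted, against 472 and 540 reads, or 33.7 and 37.5 CPM, in Vav1R63W libraries. The lowest library, replicate 3 of the deleted group, had an exact 95% Poisson interval of 5.25 to 8.001 CPM and the highest, Vav1R63W replicate 3, of 34.4 to 40.8 CPM; these intervals cover counting error only. The log2 fold change of Arpc1a was -1.21 ± 0.96 (SE), -0.57 without replicate 3 of the deleted group and -2.41 without replicate 2. Arpc1b (ENSMUSG00000029622, 145114215 to 145130705), the form known to predominate in human blood cells, was at 244 and 203 CPM against 292 and 197 CPM. Its groups overlapped and its log2 fold change was -0.10 ± 0.26 (SE). It was 0.18, with the sign turned, without Vav1R63W replicate 2, and -0.22 without replicate 2 of the deleted group. On the opposite strand Pdap1 covers 931 of its exon bases, 18.2%; Pdap1 was at 21.2 and 30.7 CPM against 25.4 and 13.6 CPM. Arpc1a shares 50 exon bases with Kpna7 on the opposite strand, and its reads in both strand columns together came to between 103% and 111% of its unstranded reads.

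The Arpc5 pair differed between its forms. Arpc5 (ENSMUSG00000008475, chromosome 1, 152766542 to 152775597, plus strand) was at 855 and 644 CPM in replicates 2 and 3 labelled Themis1-deleted, against 1160.1 and 1203 CPM in Vav1R63W replicates 2 and 3. The deleted-group libraries differed by more than the Vav1R63W ones but both lay below them, and the log2 fold change was -0.64 ± 0.16 (SE), with -0.83 and -0.47 when replicate 2 or replicate 3 of the deleted group was left out. Arpc5l (ENSMUSG00000026755, chromosome 2, 39005348 to 39015877, plus strand), its paralog, was at 198 and 227 CPM against 185 and 205 CPM, so the groups overlapped, with a log2 fold change of 0.15 ± 0.21 (SE), or 0.26 without replicate 2 and 0.02 without replicate 3 of the deleted group. It shares 62 exon bases each with Wdr38, which had no read, and with Rpl35 on the opposite strand.

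**Figure D2:**
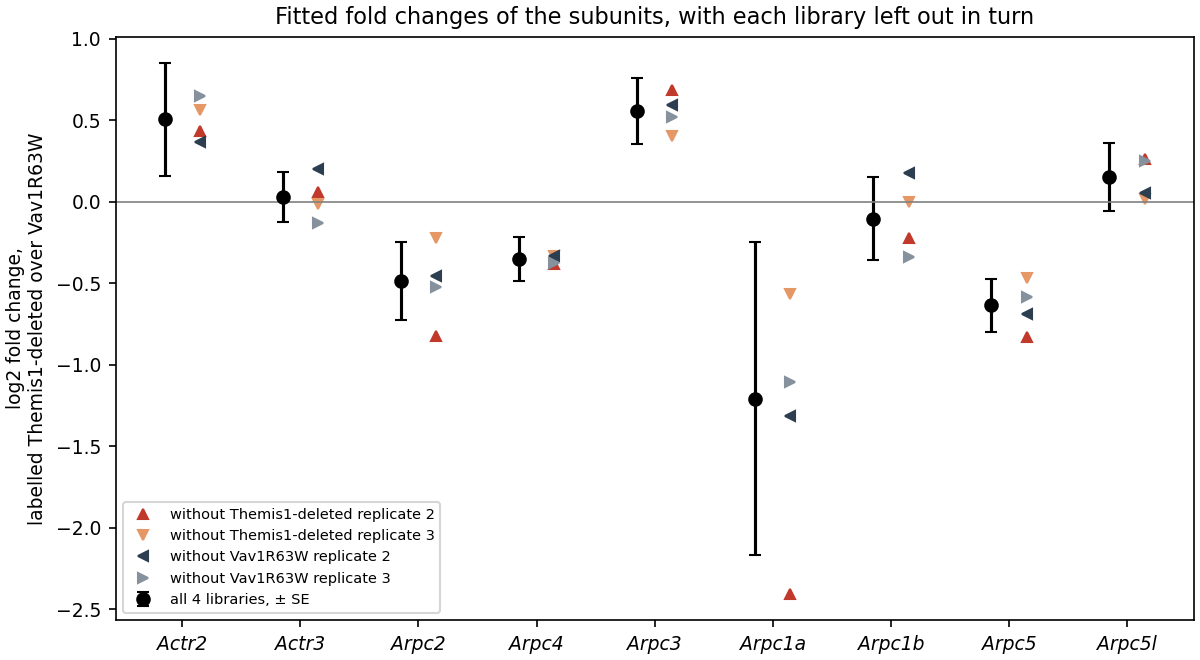
Fitted log2 fold change of each subunit, libraries labelled Themis1-deleted over Vav1R63W; black points with bars are the edgeR estimate ± SE from all 4 libraries, and triangles the estimate with the named library left out. Arpc5, Arpc4, Arpc2 and Arpc1a stay below 0 and Arpc3, Actr2 and Arpc5l above it with each library left out, while Actr3 and Arpc1b lie on both sides.

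Set together, the members did not share a direction. All 9 passed the filter on low counts, 4 with a positive and 5 with a negative log2 fold change, and their median was -0.10, against 0.00 over the 10216 genes tested. Without replicate 2 of the deleted group, the median of the members was -0.22, and it ran from -0.34 to 0.05 with each library left out in turn. In 4 members both deleted-group libraries lay below both Vav1R63W libraries, in 2 they lay above, and in 3 the groups overlapped. Over all genes tested, 18.7% lay below in this way and 15.1% above, and over the 5866 genes with a mean level of 20 CPM or more, 18.2% and 15.8%. The edgeR quasi-likelihood test, adjusted over all genes, called 0 members and 0% of genes, with 2 members (Arpc5 and Arpc3) and 4.98% of genes at an unadjusted p under 0.05. With DESeq2, 1 member was called, Arpc5 (adjusted p = 0.0390), beside 1.88% of the genes given an adjusted p (1.1% lower in the deleted group), and the authors' deposited table also called Arpc5 alone among the members (log2 fold change -0.61, adjusted p = 0.00671), beside 1.56% of its genes (0.826% lower). The authors' deposited table gave Arpc3 a log2 fold change of 0.52 and Arpc4 one of -0.34, with adjusted p of 0.161 and 0.156. These tables rest on the same reads. The summed level of the 9 genes was 3613 and 3202 CPM in libraries labelled Themis1-deleted, against 4256 and 3862 CPM in Vav1R63W libraries. That sum averaged 3407 ± 291 CPM and 4059 ± 279 CPM (SD, n = 2 each), a difference of -652 CPM, or -857 CPM without replicate 2 and -446 CPM without replicate 3 of the deleted group, and it follows mainly Arpc5 and Arpc2, since Actr3, the other abundant member, averaged 1062 and 1064 CPM.

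The balance within each pair of alternative subunits was taken per kilobase of exons. Arpc1b made up 83.6% and 94.0% of the Arpc1 pair in replicates 2 and 3 labelled Themis1-deleted, and 81.3% and 72.5% in Vav1R63W replicates 2 and 3. Both deleted-group shares were above both others, at 88.8 ± 7.36% and 76.9 ± 6.23% (SD, n = 2 each), while the gap between replicate 2 of each group was small beside these SDs. Arpc5l made up 10.5% and 15.1% of the Arpc5 pair in the deleted group and 7.46% and 7.93% in the Vav1R63W group, at 12.8 ± 3.26% and 7.70 ± 0.332%. The differences of 11.9 percentage points for Arpc1b and 5.10 for Arpc5l became 17.1 and 7.41 without replicate 2 of the deleted group, and 6.65 and 2.80 without its replicate 3. Without Vav1R63W replicate 3 the Arpc1b difference was 7.45. The shift in the Arpc5 pair came with lower Arpc5 and overlapping Arpc5l levels. Per kilobase of coding sequence the Arpc5l shares were 18.6% and 25.8% against 13.6% and 14.4%, and the Arpc1b shares 90.9% and 96.8% against 89.5% and 83.8%.

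**Figure D3:**
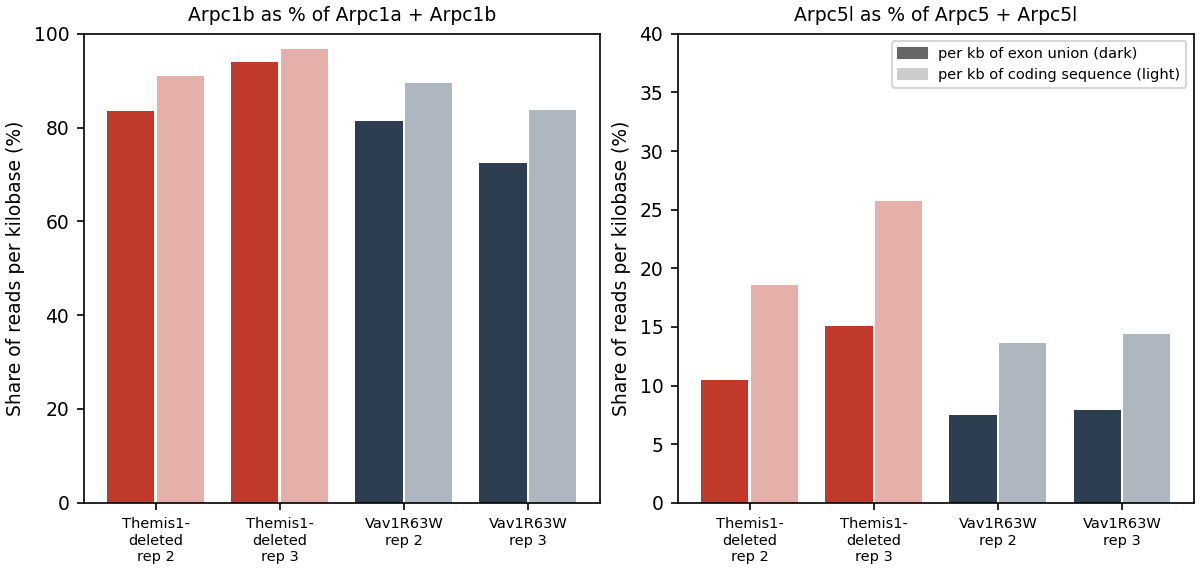
Share of Arpc1b in the Arpc1 pair (left) and of Arpc5l in the Arpc5 pair (right), as percent of reads per kilobase in each library; dark bars use the union of exons and light bars the coding sequence, red for libraries labelled Themis1-deleted and blue-grey for Vav1R63W. Both shares are higher in both red libraries than in either blue-grey one, and Arpc1b is the main form of its pair in every library, as Arpc5 is of its own.

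Actr3b, the paralog of Actr3 outside the 9 members, had 0 reads in both libraries labelled Themis1-deleted and 42 and 127 reads in Vav1R63W replicates 2 and 3. With the mean CPM of the Vav1R63W libraries taken as measured, and a floor of 3 reads in each deleted-group library, it was at least 29.3-fold lower there. Counting error is thus allowed for in the deleted group only. The bound was 14.9-fold without Vav1R63W replicate 3 and 43.8-fold without Vav1R63W replicate 2. These values were added after seeing the data and leave out the spread between libraries. That spread can be wide, as Fmnl3, a formin, had 3 and 1390 reads in the deleted-group libraries. At 2.999 and 8.82 CPM in the Vav1R63W libraries it was far below Actr3 at 1204 and 925 CPM; their exon unions are of 2425 and 4631 bases. Actr3b was not called by edgeR (adjusted p = 0.900) or DESeq2 (adjusted p = 0.233). The authors' deposited table gave it a log2 fold change of -0.41 and no adjusted p.

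Of the other genes of the pathway, 75 were listed, including Actr3b, and 53 had enough reads to be tested by edgeR. In these lists 0 genes were called by edgeR, by DESeq2 or in the authors' deposited table. Over all genes the shares called were 0%, 1.88% and 1.56%. With shares this low, 0 calls do not set these genes apart. The WASP and WAVE activators, which switch the complex on at membranes, had 7 positive and 6 negative log2 fold changes with a median of 0.07. Their most abundant members were all in the WAVE complex: Brk1 at 373 and 530.0 CPM in libraries labelled Themis1-deleted against 355 and 398 CPM, Nckap1l at 148 and 229 against 243 and 202 CPM, and Cyfip2 at 195 and 180 against 130 and 105 CPM. Among these 3, the groups did not overlap for Cyfip2 (log2 fold change 0.70 ± 0.23, SE; 0.67 without replicate 2 of the deleted group). The WASH complex, which activates Arp2/3 on endosomes, and other activators had 4 positive and 4 negative values with a median of -0.02. Washc3 was at 64.1 and 134 against 122 and 138 CPM, Washc2 at 25.9 and 26.1 against 56.6 and 20.7 CPM, and Washc5 at 22.7 and 33.7 against 23.7 and 16.9 CPM, and the groups overlapped for each.

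Inhibitors and branch-removing factors had 4 positive and 4 negative values with a median of -0.01. Coro1a, the coronin of leukocytes, was at 4311 and 4909 CPM in libraries labelled Themis1-deleted against 4830.3 and 4762 CPM in Vav1R63W libraries. Gmfg, which removes branches, was at 232 and 230.5 against 236 and 234 CPM, and Coro1b at 339 and 360 against 416 and 403 CPM. Coro1b, with a log2 fold change of -0.20 ± 0.14 (SE), was lower in both deleted-group libraries. So was Gmfg, though by little, with a fitted log2 fold change of 0.0026. Upstream of the activators, Rac2, the Rac form of blood cells, was at 2790 and 2899 against 3090 and 2928 CPM, and Cdc42 at 1704 and 1942 against 1814 and 1877 CPM. Arhgef1, a guanine nucleotide exchange factor, was at 545 and 591 against 722 and 686 CPM (log2 fold change -0.28 ± 0.13, SE), and Vav1 at 160 and 73.5 against 206 and 253 CPM (-0.96 ± 0.44, SE; -1.60 without replicate 2 and -0.52 without replicate 3 of the deleted group). Rac2, Arhgef1 and Vav1 were each lower in both deleted-group libraries, and the groups overlapped for Cdc42. Only 5 of 19 formins and other nucleators could be tested, with a median of -0.13. Fmnl3 was at 0.188 and 99.5 against 98.8 and 34.4 CPM, Diaph1 at 35.0 and 78.3 against 59.2 and 31.5 CPM, and Inf2 at 13.1 and 21.9 against 17.1 and 51.7 CPM, so replicates differed as widely as the groups.

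**Figure D4:**
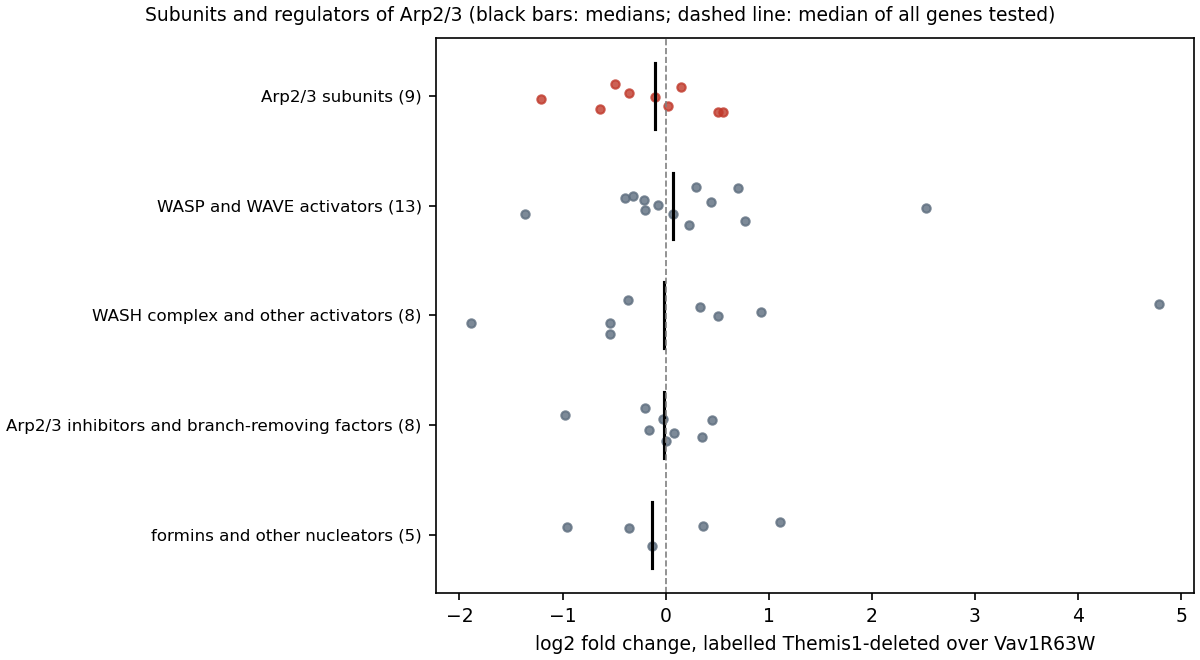
Fitted log2 fold changes (libraries labelled Themis1-deleted over Vav1R63W) of the 9 subunits and of the tested genes of 4 regulator lists; each point is a gene, black bars are medians and the dashed line is the median of all genes tested. The medians of these regulator lists lie between -0.13 and 0.07, and that of the subunits at -0.10.

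Among the members, Arpc4 lay nearest to the mean profile of the 9 over the 4 libraries, with a root-mean-square difference of 0.11 in centred log2 CPM, and Arpc1a farthest, at 0.84. Each member is itself part of that mean. Of 9059 other protein-coding genes, 160 were nearer to that mean than Arpc4 and 5166 (57.0%) were nearer than Arpc1a, with the median gene at 0.68. The nearest of these other genes were Atp6v1f, a subunit of the vacuolar proton pump, at 0.0056, and Mrps15, a mitochondrial ribosomal protein, at 0.011. Cdipt, Srpk1 and Sin3b followed, at 0.020, 0.021 and 0.021. With 4 libraries this likeness is a description only. Between the libraries of a group, the median absolute log2 difference was smaller for the 9 members than for those 5866 more abundant genes. It was 0.25 against 0.56 between the deleted-group libraries and 0.19 against 0.44 between the Vav1R63W libraries. The sets were not matched for level.

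Promoter windows, from 250 bases before to 50 bases after the start in RefSeq (GRCm38.p6), were found for 8 members. They are shown for Arpc1a and Arpc1b, which lie side by side and differ in level in every library; capitals mark GGGCGG (the GC box) and CCGGAAG (an ETS motif) on either strand. The Arpc1a window is chr5:145083619-145083918 and the Arpc1b window chr5:145114006-145114305, both on the plus strand.
Arpc1a: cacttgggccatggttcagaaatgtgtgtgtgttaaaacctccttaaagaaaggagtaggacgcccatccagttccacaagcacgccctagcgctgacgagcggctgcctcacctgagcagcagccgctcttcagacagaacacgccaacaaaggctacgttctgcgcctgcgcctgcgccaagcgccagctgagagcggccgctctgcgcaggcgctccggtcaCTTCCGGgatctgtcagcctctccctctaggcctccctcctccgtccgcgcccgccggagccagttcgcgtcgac
Arpc1b: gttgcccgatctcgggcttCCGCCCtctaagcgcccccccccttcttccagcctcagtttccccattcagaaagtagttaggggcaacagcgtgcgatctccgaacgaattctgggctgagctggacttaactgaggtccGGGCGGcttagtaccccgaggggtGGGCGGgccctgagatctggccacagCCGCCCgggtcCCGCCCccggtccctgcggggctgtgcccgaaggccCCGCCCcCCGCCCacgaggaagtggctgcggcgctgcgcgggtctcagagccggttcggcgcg
Arpc1b had 7 matches to GGGCGG and none to CCGGAAG, whereas Arpc1a had none to GGGCGG and 1 to CCGGAAG, counted on both strands (CCGCCC and CTTCCGG are their reverse complements). Over the members, GGGCGG was in 6 of 8 windows (all but Arpc1a and Arpc4) and in 35.7% of 32851 promoter windows, and CCGGAAG in 5 of 8 (Actr2, Actr3, Arpc1a, Arpc3 and Arpc4) and in 8.86%. CCAAT was in 2 of 8 (Arpc5 and Actr2) and in 37.4%, TATAAA in 0 of 8 and in 13.6%, and the CArG box in 1 of 8 (Arpc4) and in 1.63%. The member windows were between 52.7% and 73.7% G and C, and the median over all windows was 52.7%. A match is a run of letters in the window and not a shown binding site.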

How the data were processed

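The authors checked reads with FastQC, trimmed them with Trim Galore and aligned them with STAR, per the submitters' processing notes; versions are not given in the sources used here. The series' design text names Ensembl version 90 while the processing notes name mm9. In the deposited sample files each gene has raw counts in 3 columns, 1 ignoring strand and 1 per strand. The authors' deposited series table holds the same counts (equal for all 52636 genes in each library) beside linear fold changes, their log2 values and p-values, which the authors made with DESeq2 in SARTools, per the file headers and design text. Its log2 fold changes of low genes are smaller than those fitted here (-0.52 against -1.21 for Arpc1a). Its 4 columns of normalized values were not used. The kit named in the labels does not mark strand.

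The unstranded counts were fitted with edgeR 4.0.16 in R 4.3.3 (TMM, filterByExpr with a minimum count of 10 and total of 15, quasi-likelihood F test with robust fitting, genotype as the only term). Calls are at a Benjamini-Hochberg adjusted p under 0.05 over all genes tested. SE is the log2 fold change over the square root of F. CPM are reads per 1000000 reads in genes. The summary lines of each file, 21.1% to 23.1% of reads, were left out. Symbols and coordinates are from GENCODE M21 (GRCm38) by gene ID. The labels do not say that replicates came from separate animals, so the spread behind SEs and p-values may be technical. Floors and intervals cover counting error only. The members and lists were chosen with earlier results of these data known. Named are the 9 members, Actr3b, Themis, Vav1 and the 3 regulators of each list with the highest mean CPM. So are the 5 protein-coding genes of nearest profile, Foxp3, Il2ra and the most abundant marker of each list of other cell types with reads. Other markers were named after their values were seen. They are shown because they had no read, had reads beside markers with none, did not overlap between the groups, or differed widely between replicates. Genes that overlap or resemble members are named as such. Some items are not reported here. The scripts were tested on simulated data. Alternatives were DESeq2 1.42.0, limma-voom (limma 3.58.1), other normalization and filters, the strand columns, a replicate block and leaving out each library.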

Additional observations from a re-analysis of the deposited data

How the results depend on the processing

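edgeR called 0 genes, 0 members and 0 regulators under each alternative run with it, as did limma-voom; DESeq2 called 206 genes and 1 member (Arpc5). The median log2 fold change of the members ran from -0.34 to 0.05 with a library left out and from -0.13 to -0.07 otherwise. Leaving out a library moved the difference in summed CPM between -857 and -446, that in the Arpc1b share between 6.65 and 17.1 percentage points and that in the Arpc5l share between 2.80 and 7.41; with coding length the Arpc5l difference was 8.20. Signs turned with a library left out for Actr3 (-0.13 to 0.20), Arpc1b (-0.34 to 0.18), Nckap1l (-0.59 to 0.086), Brk1 (-0.016 to 0.54), Washc2 (-1.07 to 0.32), Washc3 (-1.03 to 0.082), Gmfg (-0.022 to 0.020), Coro1a (-0.16 to 0.078), Cdc42 (-0.12 to 0.12), Diaph1 (-0.37 to 0.86), Fmnl3 (-8.40 to 0.63), Inf2 (-1.56 to 0.092) and Themis (-10.55 to 1.68). With library totals and no TMM the log2 fold change was -0.0026 for Actr3, -0.023 for Gmfg and -0.018 for Cdc42. It was -0.00046 for Gmfg with no filter, -0.041 for Gmfg in the first strand column, -0.0047 for Cdc42 in the second, and -0.0083 for Cdc42 and -3.05 for Themis with limma-voom. The causes were not tested.

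The replicate numbers are shared between the groups but nothing in the labels pairs them, and the deviations of same-numbered libraries had a correlation of -0.0054 over 5251 genes. With the replicate block edgeR called 0 genes and 0 members, the median of the members was -0.085, and Themis was at -2.93. With 2 libraries a group, a log2 fold change of the size seen in these members is hard to tell from the spread between libraries.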

Other observations

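Gm16372, the processed pseudogene that shares 2.04% of the 50-base windows of Arpc5, had 24 and 100 reads in replicates 2 and 3 labelled Themis1-deleted, and 2 and 1 in Vav1R63W replicates 2 and 3. It is named after its values were seen and was not called by edgeR (adjusted p = 0.958). Arpc5 itself had 13633 and 8996 reads in libraries labelled Themis1-deleted and 16246 and 17327 in Vav1R63W libraries.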
